A study of Arabidopsis thaliana with 30 samples.

Results

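The comparison described here asks whether auxin changed gene expression in the outer tissues of the Arabidopsis thaliana root by a different amount than in the inner tissues. Its members are the 24 arrays of 4 sorted tissues, out of 30 arrays in all, with the 6 arrays of intact roots left out: 12 arrays of the epidermis and columella stand for the outer side and 12 arrays of the stele and pericycle for the inner side. For every gene, the auxin response of a tissue is its log2 level in auxin arrays minus its log2 level in control arrays. The value under study is the mean response of epidermis and columella minus the mean response of stele and pericycle. Of 8976 genes tested, 118 (1.31%) differed in response between the sides, namely 62 (0.691%) whose outer response was the higher and 56 (0.624%) whose outer response was the lower.

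All plants were of the Col-0 accession and were taken as 1-week-old seedlings. Stele cells, from the central vascular cylinder, came from the reporter line pWOL::GFP, and xylem-pole pericycle cells, from the layer in which lateral roots start, came from the enhancer trap line E3754. Cells of the epidermis and lateral root cap came from the reporter line pWER::GFP, and cells of the columella, the centre of the root cap, came from the enhancer trap line PET111. Each tissue was therefore sorted from its own line, so tissue and line cannot be told apart. Seedlings received 5 µM indole-3-acetic acid (IAA), the main natural auxin, or solvent alone for 2 h. Roots were then cut and their cell walls digested for 1 h, with IAA kept in the digestion of the treated roots, before fluorescent cells were collected. Each tissue and treatment was measured on 3 arrays, which gives 8 groups. The labels do not say that the arrays of a group came from separate cultures, so p-values measure the spread between these arrays, which may be partly technical.

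Auxin acts in the nucleus through receptors that mark the Aux/IAA repressors for breakdown and so free the auxin response factors to switch genes on. Among the first genes to rise are those of the Aux/IAA repressors themselves and of the GH3 enzymes, which tie auxin to amino acids and lower its free level. In the root, auxin slows the elongation of cells, favours root hair growth in the epidermis, and sets off lateral roots from the pericycle. Enzymes that loosen or rebuild the cell wall, such as expansins, endoglucanases, pectin-modifying enzymes and xyloglucan endotransglucosylases, take part in elongation and in root hair growth.

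Signals, the authors' intensities on a linear scale, are given below as deposited, and responses and differences are on the scale log2(signal + 16), with the standard error of the limma fit after the ± sign. The constant 16 makes the change of genes with low signals look smaller than it was. Calls were made at an adjusted p under 0.05, over all 8976 genes. The sorted arrays had medians between 54.4 and 83, and within a group the correlation of arrays across genes ran from r = 0.912, in auxin-treated pericycle, to 0.972. Few tissue markers have a probe set with a gene name here: 2 of 13 for the stele, 1 of 7 for the phloem, 3 of 12 for the epidermis and root hairs, 3 of 11 for the endodermis and cortex, and 0 of 9 and 0 of 4 for xylem and root cap. The summed signal of the stele markers was 282 to 709 in stele arrays and 83.4 to 302 elsewhere. The epidermis and root hair markers summed to 527 to 754 in control epidermis, 225 to 430 in control columella, 143 to 301 in control stele and 115 to 347 in control pericycle, so they were present outside the epidermis too. The columella label could not be checked, since no root cap marker was named.

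**Figure D1:**
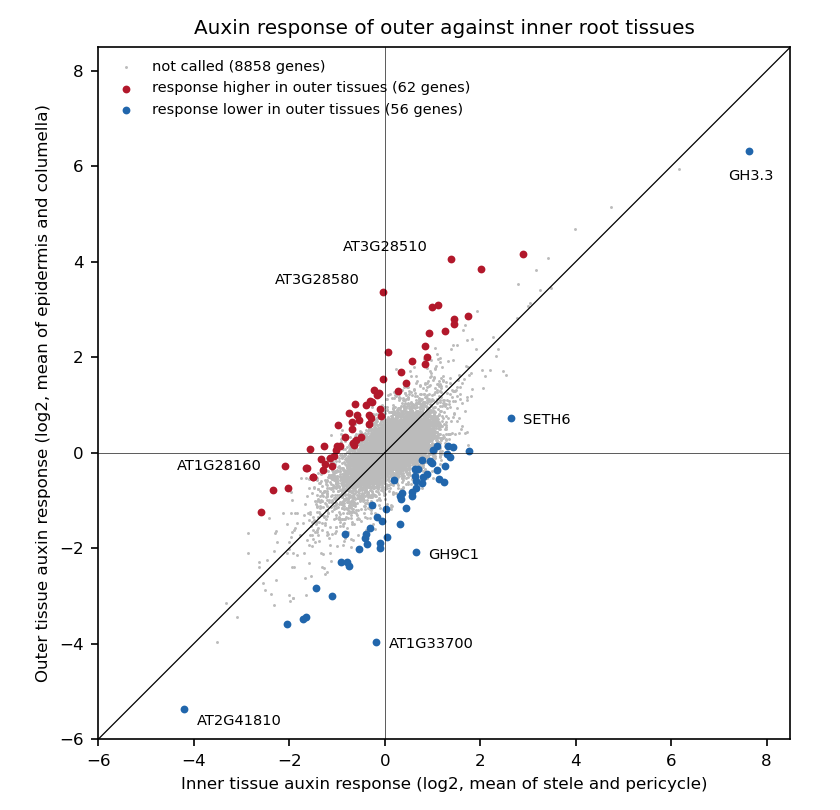
Each point is 1 of 8976 genes, with its mean auxin response in stele and pericycle (x axis, log2) and in epidermis and columella (y axis, log2); the diagonal marks equal responses. The 62 genes with a higher outer response (red) lie above the diagonal and the 56 with a lower outer response (blue) below it, AT1G33700 farthest below and AT3G28580 farthest above.

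Over all genes the difference between the sides had a median of −0.029, and 90% of genes lay between the 5th percentile of −0.747 and the 95th of 0.62. The 62 genes with a higher outer response ranged from 0.80 to 3.40, with a median of 1.28, and 53 of them differed by more than 2-fold and 4 by more than 4-fold. The 56 genes with a lower outer response ranged from −3.78 to −0.77, with a median of −1.38, and 49 differed by more than 2-fold and 2 by more than 4-fold. All 62 and 54 of the 56 had a difference of one sign in each of the 4 pairings of an outer with an inner tissue, as did 40.6% of all genes. The genes were called on the mean of these same 4 differences, so agreement in sign was largely fixed by the selection and is no separate support. The 2 exceptions were AT2G38790 and AT2G43590, both with a lower response in the stele than in the pericycle. The count of calls depended on the setting. It was 192, of which 104 lower, without columella control replicate 1. It ran from 25 with the epidermis left out of the contrast to 361 with weighted arrays. All 118 genes kept the sign of their difference in every setting in which they were tested, but their selection largely fixed this. Of the 118, 35 were still called with the stele left out of the contrast and 73 with the pericycle left out. With the epidermis left out 25 were, and with the columella left out 54.

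Where the difference arose was read from the responses of the 2 sides. Of the 56 lower genes, 22 fell in the outer tissues without a call in the inner ones, 18 rose in the inner tissues without a call in the outer ones, 9 fell on both sides, 2 rose on both sides and 5 moved in opposite directions. Of the 62 higher genes, 20 fell in the inner tissues alone, 16 rose in the outer tissues alone, 15 rose on both sides, 5 fell on both sides and 6 moved in opposite directions. Over all genes the outer response was called for 1670 (18.6%), up in 876 (9.76%) and down in 794 (8.85%), and the inner response for 2752 (30.7%), up in 1653 (18.4%) and down in 1099 (12.2%). The median response of the higher genes was −0.67 in the stele, −0.07 in the pericycle, 0.72 in the epidermis and 0.96 in the columella, and that of the lower genes was 0.29, 0.40, −1.09 and −0.78 in the same order.

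The largest difference of all was a loss of expression in the outer tissues. AT1G33700, a gene for a predicted glucosylceramidase, an enzyme that splits the sugar from a membrane lipid, had signals of 1489, 877 and 1144 in control epidermis and 19.4, 54.8 and 51.4 in auxin-treated epidermis. In the columella its signals were 574, 442 and 701 without auxin and 19.9, 34.4 and 54.5 with it. The stele gave 867, 683 and 622 without and 357, 279 and 803 with auxin, and the pericycle 506, 371 and 707 without and 847, 389 and 851 with auxin. Control and auxin arrays were thus far apart in both outer tissues and overlapped in both inner ones. The response was −3.96 ± 0.24 in the outer and −0.18 ± 0.24 in the inner tissues, and the difference of −3.78 ± 0.34 was 13.7-fold (limma, adjusted p = 2.36e-08). Its control level did not pass the test between the sides, with a difference of 0.40 (limma, adjusted p = 0.23), and in auxin arrays the outer minus inner level was −3.38.

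GH9C1 (AT1G48930), which encodes an endoglucanase of the family 9 glycosyl hydrolases, moved in opposite directions. Its signals were 423, 399 and 604 in control epidermis and 64.9, 76.7 and 51.2 in auxin-treated epidermis, and 230, 139 and 235 against 29.7, 76.1 and 68.6 in the columella. In the stele they were 134, 103 and 75 without and 271, 179 and 225 with auxin. All auxin arrays lay below the controls in both outer tissues and above them in the stele, while the pericycle, at 131, 138 and 108 against 128, 74.8 and 376, overlapped. The outer response was −2.09 ± 0.25, the inner response was 0.65 ± 0.25, and the difference was −2.75 ± 0.35 (limma, adjusted p = 1.39e-05). A second endoglucanase gene of the family, GH9B13, had responses of −2.28 in epidermis, −1.13 in columella and −0.97 in pericycle, all called, and 0.16 in stele, and its difference was −1.30 ± 0.26. Of 8 tested members of the family these 2 were called lower and none higher, against 0.624% and 0.691% of all genes. The median difference of the 8 was 0.20, and none of the other 6 passed the test.

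Other cell wall genes were among those that fell in the outer tissues. XTH33, which encodes a xyloglucan endotransglucosylase, an enzyme that cuts and rejoins wall polymers, had signals of 269, 224 and 171 in control epidermis and 18.9, 6.47 and 29.8 with auxin. Its response was −2.83 in the epidermis but −0.70 in the columella, which did not pass, and it was 0.13 in the stele and −0.03 in the pericycle. No other of the 8 tested genes of that family was called, against 1.31% of all genes, and the family's median difference was 0.20. AT1G19900, which encodes a glyoxal oxidase-related protein, had a difference of −1.88 ± 0.38. AT4G26830, a glycosyl hydrolase of family 17, had one of −1.80 ± 0.40, and it passed in the epidermis (−1.88) but not in the columella (−1.11). Both genes had responses near 0 in the stele and pericycle, at −0.05 and −0.17 for AT1G19900 and at 0.25 and 0.38 for AT4G26830. AT3G07070, a protein kinase gene, showed the same course, with signals of 102, 85 and 72.7 in control epidermis, 2.41, 24 and 2.58 with auxin, and a difference of −1.80 ± 0.37. The adjusted p-values of these 3 genes ranged from 0.0076 to 0.0131. In control arrays of stele and pericycle, these 3 genes and XTH33 already had low signals. They ran from 15.2 to 46.4 (AT1G19900), 4.47 to 19.2 (AT4G26830), 4.03 to 32.7 (AT3G07070) and 16.8 to 36.5 (XTH33). All lay under the lowest array median of 54.4, so little fall could be measured in the inner tissues.

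A further group fell on both sides and farther on the outer one. EXPA18, an expansin gene used as a marker of root hairs, had signals of 323, 258 and 360 in control epidermis and 8.53, 2.25 and 4.04 with auxin, and 191, 108 and 213 against 3.45, 8.16 and 0.823 in the columella. In the stele it went from 133, 72.8 and 88.8 to 13, 1.54 and 17.1, and in the pericycle from 43.1, 44.5 and 211 to 1.78, 3.86 and 23.5. No auxin array reached a control array of its tissue, on either side. The outer response was −3.58 ± 0.28 and the inner one −2.04 ± 0.28, and the difference of −1.54 ± 0.40 (limma, adjusted p = 0.0421) lost its call in 25 of 40 alternative settings. AT5G04960, which encodes a pectinesterase, fell in every tissue, with responses of −3.63 (epidermis), −3.34 (columella), −1.87 (stele) and −1.56 (pericycle), and its difference of −1.77 ± 0.43 lost its call in 11 settings. AT1G52660 had responses of −3.75, −3.13, −1.73 and −1.55 in the same order and a difference of −1.80 ± 0.34 (limma, adjusted p = 0.00455). AT5G04120 also fell on both sides, and its difference of −1.90 ± 0.50 lost its call in 28 of 40 settings. In control arrays the outer minus inner levels of EXPA18, AT5G04960, AT1G52660 and AT5G04120 were 1.25, 1.78, 1.64 and 1.23. In auxin arrays they were −0.29, 0.01, −0.16 and −0.67, none of which passed. The auxin signals of EXPA18 and AT1G52660 were at most 23.5 and 27.6 in any tissue, where the constant 16 limits the fall that can be measured.

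Of 29 listed root hair genes 4 were tested. Of these, 3 were called down on each side, against 8.85% of all genes outside and 12.2% inside, and XTH26 was called on neither. For the difference 1, EXPA18, was called lower, against 0.624% of all genes. The median difference of the 4 was −1.0, against −0.03 over all genes. EXPA7, another root hair expansin, had a difference of −1.13 ± 0.37 (limma, adjusted p = 0.124), and AT4G26010, a peroxidase gene of root hairs, had one of −0.86 ± 0.41 (limma, adjusted p = 0.339), so neither passed. Among 15 tested expansins, which loosen cell walls, EXPA18 was the only call, against 1.31% of all genes. The median difference of the expansins was −0.42. The summed signal of the epidermis and root hair markers in auxin arrays was 51.8 to 70.2 in the epidermis, 28.1 to 66.4 in the columella, 36.9 to 77.3 in the stele and 12.2 to 88.4 in the pericycle, against 115 or more in every control array. In sorted bulk cells, fewer cells of a type and less RNA per cell cannot be told apart, and the part of these markers in the outer falls was not tested.

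**Figure D2:**
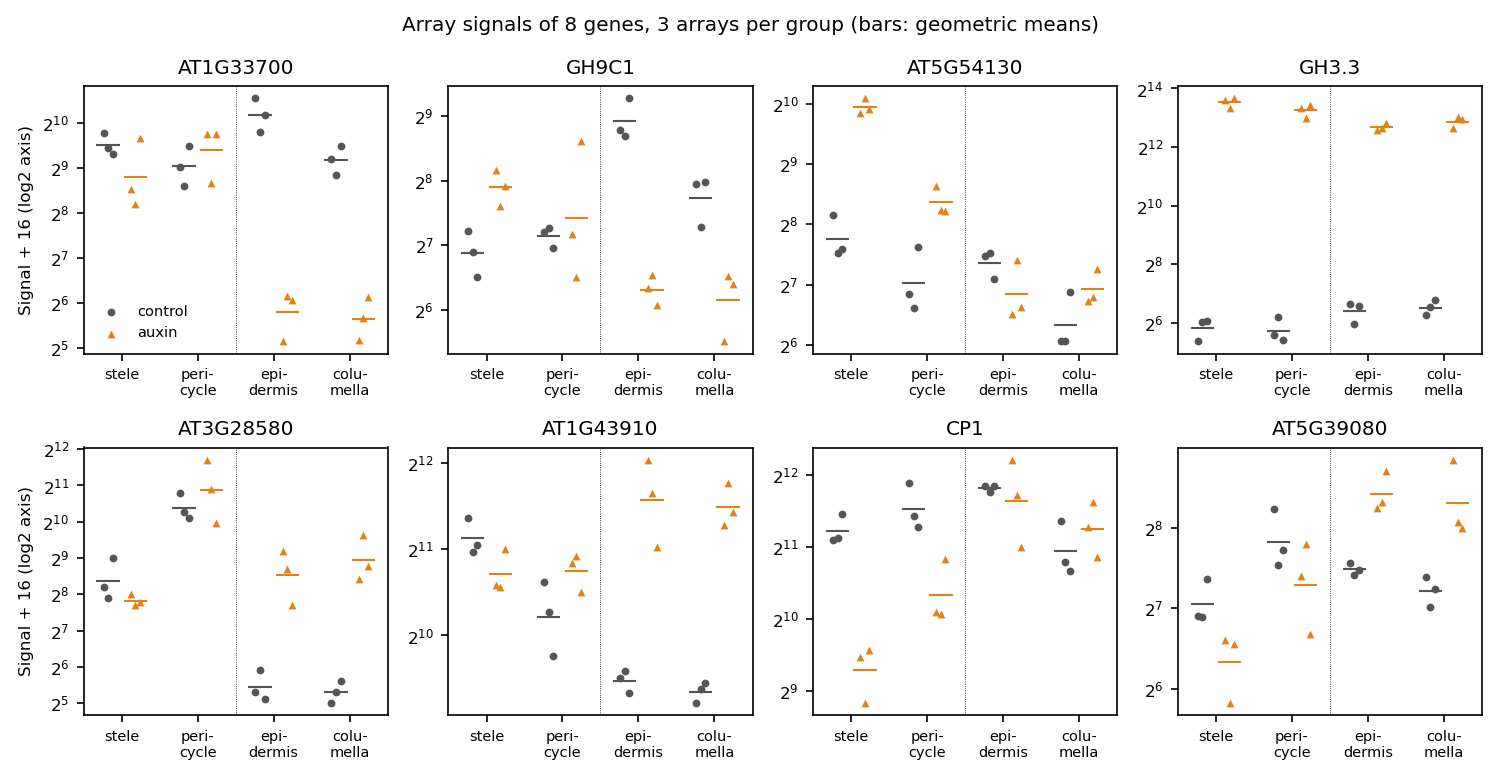
Signal + 16 of 8 genes on a log2 axis in each of the 24 arrays, with 3 control arrays (grey circles) and 3 auxin arrays (orange triangles) per tissue and bars at their geometric means. AT1G33700 shows separate treatments only in epidermis and columella, AT5G54130 and CP1 in stele and pericycle, and GH3.3 in all 4 tissues.

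The genes with a lower outer response also held those that rose mainly in the inner tissues. SETH6 (AT2G47860), which encodes a protein of the NPH3 family, had signals of 35.2, 13.5 and 5.59 in control stele and 261, 229 and 187 with auxin, and 1.86, 4.67 and 16.2 against 149, 99.1 and 69.6 in the pericycle. In the epidermis it went from 15.5, 15.4 and 28.6 to 54.8, 22.6 and 35.8, and in the columella from 28.7, 14.2 and 6.41 to 59.2, 20.9 and 53.6. The treatments were apart in the stele and pericycle and overlapped in the epidermis and columella. The inner response was 2.64 ± 0.26, the outer response 0.73 ± 0.26, and the difference −1.91 ± 0.36 (limma, adjusted p = 0.00455). AT5G54130 rose by 2.19 in the stele, from 269, 168 and 177 to 903, 1073 and 951, and by 1.33 in the pericycle, from 98.6, 82.3 and 181 to 383, 285 and 281. Its responses of −0.52 in the epidermis and 0.59 in the columella did not pass, and its difference was −1.73 ± 0.29 (limma, adjusted p = 9.52e-04). AT4G27620 and AT1G23790, 2 more genes that rose in the inner tissues alone, had inner responses of 1.14 and 1.27 and differences of −1.69 ± 0.40 and −1.54 ± 0.34.

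The genes with a higher outer response were led by 4 genes of a family of AAA-type ATPases, proteins that use ATP to remodel or unfold other proteins. Of 23 listed genes close to AATP1, 14 were named on the array and 9 were tested. Of these, 4 had a higher and none a lower outer response, against 0.691% and 0.624% of all genes. The 4, AT3G28580, AT3G28510, AT5G17760 and AT1G43910, also had the 4 largest differences of all called genes in that direction. The list was chosen with earlier results of these data known, so its count is no independent support for a response of the family. The remaining 5 had differences between −0.40 and 0.30, none of them called, and the median of the 9 was 0.30.

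AT3G28580 had signals of 23.2, 44 and 18.7 in control epidermis and 567, 395 and 194 in auxin-treated epidermis, and 16.1, 23.3 and 32.5 against 328, 777 and 420 in the columella. In the stele it had 280, 224 and 493 without and 240, 191 and 204 with auxin, and in the pericycle 1749, 1207 and 1085 without and 3339, 1912 and 984 with auxin. Every auxin array lay above every control array in both outer tissues, whereas the treatments overlapped in both inner ones. The difference was 3.40 ± 0.37, or 10.5-fold (limma, adjusted p = 8.41e-07), made of an outer response of 3.37 ± 0.26 and an inner response of −0.03 ± 0.26. Without auxin the gene was far lower in the outer than in the inner tissues, with a level difference of −4.01, and with auxin the sides differed by −0.61, which did not pass the test (limma, adjusted p = 0.058).

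AT1G43910 followed the same course at a smaller size. Its signals rose from 713, 751 and 630 to 4205, 3206 and 2076 in the epidermis and from 579, 651 and 682 to 2468, 3476 and 2752 in the columella. They were 2620, 1996 and 2112 against 1524, 1492 and 2038 in the stele and 1557, 1219 and 854 against 1814, 1925 and 1434 in the pericycle. The outer response was 2.12 ± 0.16, the inner one 0.06 ± 0.16 and the difference 2.06 ± 0.23 (limma, adjusted p = 1.15e-06). AT5G17760 and AT3G28510 rose on both sides and farther on the outer one. AT5G17760 went from 173, 256 and 232 to 3195, 2728 and 2105 in the epidermis, and from 1396, 1405 and 1305 to 2348, 2438 and 2742 in the stele, with a difference of 2.08 ± 0.23. AT3G28510 rose in columella (4.17), epidermis (3.96) and pericycle (2.21), while its 0.57 in stele did not pass, and its difference was 2.67 ± 0.37. AT3G28510 and AT3G28580 lie 9 annotated genes apart, with 2 tested genes between them that were not called.

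**Figure D3:**
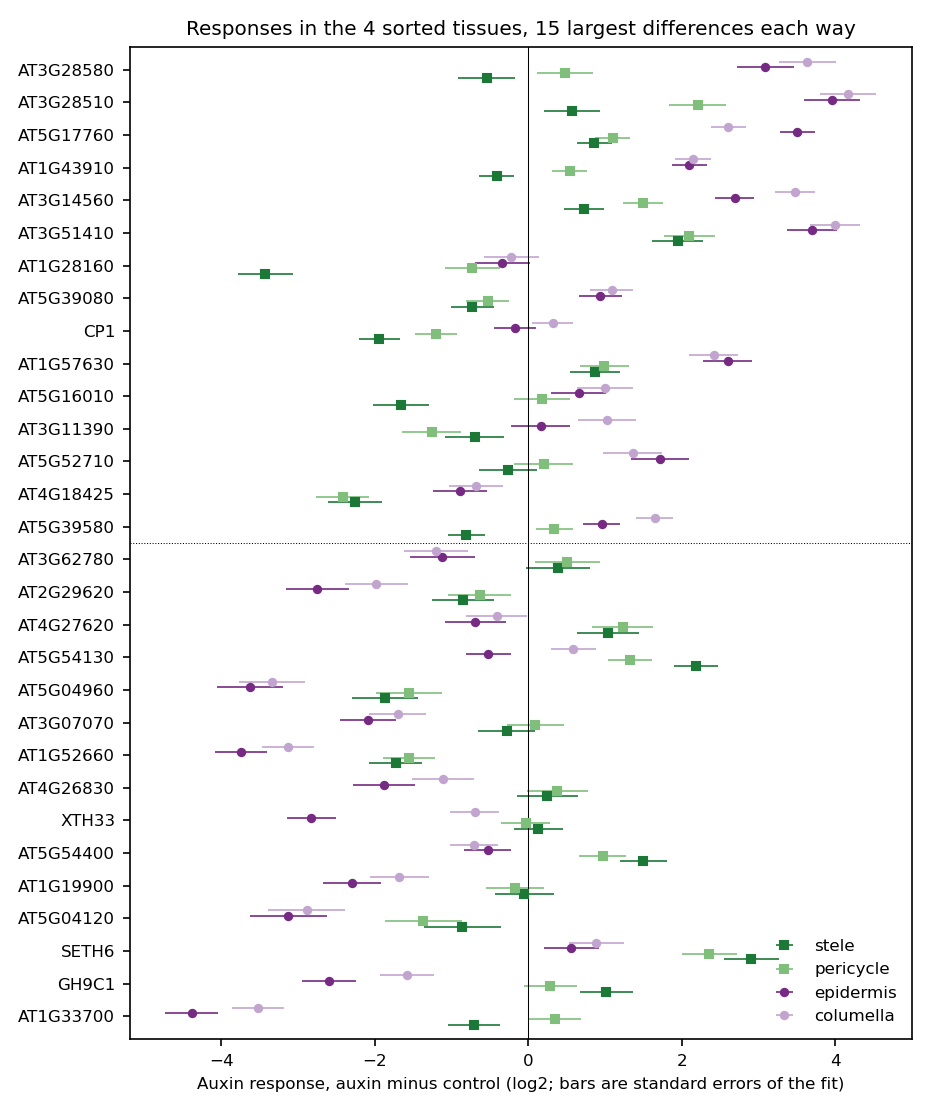
Auxin response (log2, x axis) of the 15 genes with the largest differences in each direction, in stele (dark green squares), pericycle (light green squares), epidermis (dark purple circles) and columella (light purple circles), with bars of 1 standard error from the limma fit. In every gene shown both purple circles lie on the same side of both green squares, and the position of 0 shows which side moved.

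Among the other higher genes, AT3G51410, AT3G14560 and AT1G57630 rose in all 4 tissues. AT3G51410 went from signals of 1.95, 8.46 and 10.5 to 260, 330 and 250 in the epidermis, and from 2.37, 3.71 and 10.3 to 66.6, 70.9 and 59.8 in the stele, with a difference of 1.83 ± 0.33. AT3G14560 had responses of 3.48 in columella, 2.69 in epidermis, 1.5 in pericycle and 0.73 in stele. AT1G57630, whose protein carries the TIR domain of plant immune receptors, rose by 2.60 and 2.42 in the outer and by 0.87 and 0.99 in the inner tissues. AT5G39580, a class III peroxidase gene, rose in columella (1.65) and epidermis (0.96) and fell in stele (−0.81), and its difference was 1.54 ± 0.24 (limma, adjusted p = 3.46e-04). AT5G52710, a gene of the heavy-metal-associated domain family, rose by 1.72 and 1.36 in the outer tissues, with responses of −0.26 and 0.20 in the inner ones. Its difference of 1.57 ± 0.38 lost its call in 11 of 40 settings.

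In 20 of the higher genes the inner tissues alone were called, with a fall. CP1 (AT4G36880), which encodes a papain-type cysteine protease, had signals of 2187, 2217 and 2791 in control stele and 692, 441 and 742 with auxin, and 3786, 2739 and 2461 against 1077, 1059 and 1810 in the pericycle. In the epidermis it went from 3666, 3481 and 3660 to 4743, 3363 and 2032, and in the columella from 2618, 1765 and 1607 to 2472, 3138 and 1856. The treatments did not overlap in the stele and pericycle and did overlap in the other tissues. The inner response was −1.57 ± 0.19, the outer response 0.07 ± 0.19, and the difference 1.64 ± 0.27 (limma, adjusted p = 9.31e-04), while the control levels of the sides differed by 0.00. AT1G28160, a gene of the AP2/ERF family of transcription factors, had a difference of 1.80 ± 0.36 that rested on the stele: signals there went from 209, 201 and 246 to 4.59, 1.73 and 11.7, a response of −3.43. Its responses were −0.73 in the pericycle, −0.34 in the epidermis and −0.22 in the columella, none of which passed, and outside the control stele no signal was above 65.9. AT3G11390 had an inner response of −0.98 and a difference of 1.57 ± 0.38, a call that was lost in 10 of 39 settings.

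Opposite directions on the 2 sides were called for 11 genes, and all 11 were also called for the difference. The difference is made of these same 2 responses, so its call is no separate support. With GH9C1, AT5G54400, AT1G49310, AT1G11800 and AT5G51380 fell outside and rose inside. AT5G54400, which encodes a predicted methyltransferase, had signals of 250, 187 and 197 in control epidermis and 108, 145 and 176 with auxin, and 55.8, 45.4 and 50.3 against 99.6, 172 and 289 in the stele. Its outer response was −0.62 ± 0.22 and its inner response 1.24 ± 0.22. Another 6 genes, AT5G39080, AT5G16010, AT1G08050, AT5G41280, AT3G50900 and AT3G11930, rose outside and fell inside. AT5G39080, which encodes a predicted acyltransferase, went from 173, 154 and 161 to 288, 302 and 400 in the epidermis and from 104, 102 and 148 to 81.3, 40.6 and 77.7 in the stele, with responses of 1.02 ± 0.20 outside and −0.63 ± 0.20 inside. AT5G16010, a gene of the steroid reductase family, had an outer response of 0.83 ± 0.25 and an inner one of −0.74 ± 0.25, the latter from the stele at −1.66, while the pericycle stood at 0.18. AT1G08050 and AT3G50900 likewise had stele responses of −1.34 and −1.43 and pericycle responses of 0.17 and 0.06, and AT5G51380 had −1.03 in the epidermis and 0.07 in the columella. For AT1G11800 and AT5G41280 no tissue passed on its own, only the means of the sides. Class members beyond GH9C1, AT5G54400, AT5G39080 and AT5G16010 were named after their values were seen.

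Of the 5 genes that fell on both sides and less in the outer tissues, 4 encode enzymes that cut pectin; they were picked after their values were seen. The polygalacturonase genes AT2G43880 and AT3G59850 fell by 2.60 and 2.03 in the inner and by 1.25 and 0.74 in the outer tissues. In intact roots AT3G59850 instead rose by 3.42 ± 0.20, while AT2G43880 fell by 1.81 ± 0.25. Of all 5 genes, 2 rose and 1 fell in intact roots. The pectate lyase genes AT5G48900 and AT3G24670 had responses of −1.51 and −1.5 in the inner and −0.51 and −0.5 in the outer tissues. The fifth, AT4G18425, had signals of 337, 341 and 392 in control stele and 115, 38.2 and 50 with auxin, and a difference of 1.56 ± 0.35. The pectinesterase gene AT5G04960 had the opposite difference. The list of pectin-degrading enzymes, which rests on names in the gene table, held none of these genes, and neither of its 2 tested members was called.

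Early auxin genes were called up on both sides, 4 of 6 Aux/IAA genes on each and 4 and 3 of 5 GH3 genes on the outer and inner side. Over all genes 9.76% were called up outside and 18.4% inside. Only 6 of 29 listed Aux/IAA genes and 5 of 11 listed GH3 genes were tested. GH3.3 (AT2G23170), the GH3 enzyme gene with the largest rise in the sorted tissues, had signals of 25.2, 48.8 and 50 in control stele and 12560, 10380 and 13010 with auxin, and 83.6, 46.6 and 78.5 against 6059, 6476 and 7149 in the epidermis. Its response was 7.74 in stele, 7.52 in pericycle, 6.29 in epidermis and 6.35 in columella. It was the only one of 5 tested GH3 genes called for the difference, at −1.31 ± 0.23 (limma, adjusted p = 0.00237). Over all genes 1.31% were called, and the list's median difference was 0.26. WES1 (GH3.5, AT4G27260) rose by between 4.24 and 5.97 in the 4 tissues, and its difference of 0.41 ± 0.22 did not pass. None of 6 tested Aux/IAA genes was called, and their median difference was −0.05: IAA29 had 5.95 ± 0.21 in the outer and 6.17 ± 0.21 in the inner tissues, and IAA30 had 4.69 ± 0.20 and 4.00 ± 0.20. The HD-ZIP II gene HAT2 and the kinase gene WAG2, a regulator of auxin transport, had differences of −0.30 ± 0.24 and −0.12 ± 0.27, which did not pass.

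Lateral root genes rose in the inner tissues, but none differed between the sides by the test. Of 4 tested genes of lateral root initiation, 4 were called up in the inner tissues, where 18.4% of all genes were, and 1, LBD16, in the outer tissues, where 9.76% were, and the median difference was −0.78. LBD16, a transcription factor gene needed for the first divisions, had responses of 2.09 ± 0.22 inside and 1.61 ± 0.22 outside, with a difference of −0.48 ± 0.31. LBD29 had the lowest difference of the list, −1.34 ± 0.40 (limma, adjusted p = 0.0825), with a response of 1.84 in the pericycle, and PUCHI had −1.06 ± 0.35 (limma, adjusted p = 0.122), with 2.32 in the stele. These 2 genes are given for their values, which were known when they were picked. Of the remaining lists with tested members, no gene was called among 31 UDP-glycosyltransferases, 10 glutathione S-transferases, 7 cytochromes P450, 6 WRKY factors and 6 bHLH factors. Nor was any called among 5 class III peroxidases, 4 genes of glucosinolate synthesis and transport, 4 of auxin synthesis and breakdown, and 2 each of ethylene genes and histones. Over all genes 1.31% were called, so lists this short would mostly hold no call, and its absence says little about them. Lists built on names hold only genes whose name is in the gene table, so UGT76B1, a glycosyltransferase gene with a difference of 1.32 ± 0.29, fell outside the list of its family, as did the called class III peroxidase gene AT5G39580 and the called bHLH gene UPB1, at 0.93 ± 0.22.

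**Figure D4:**
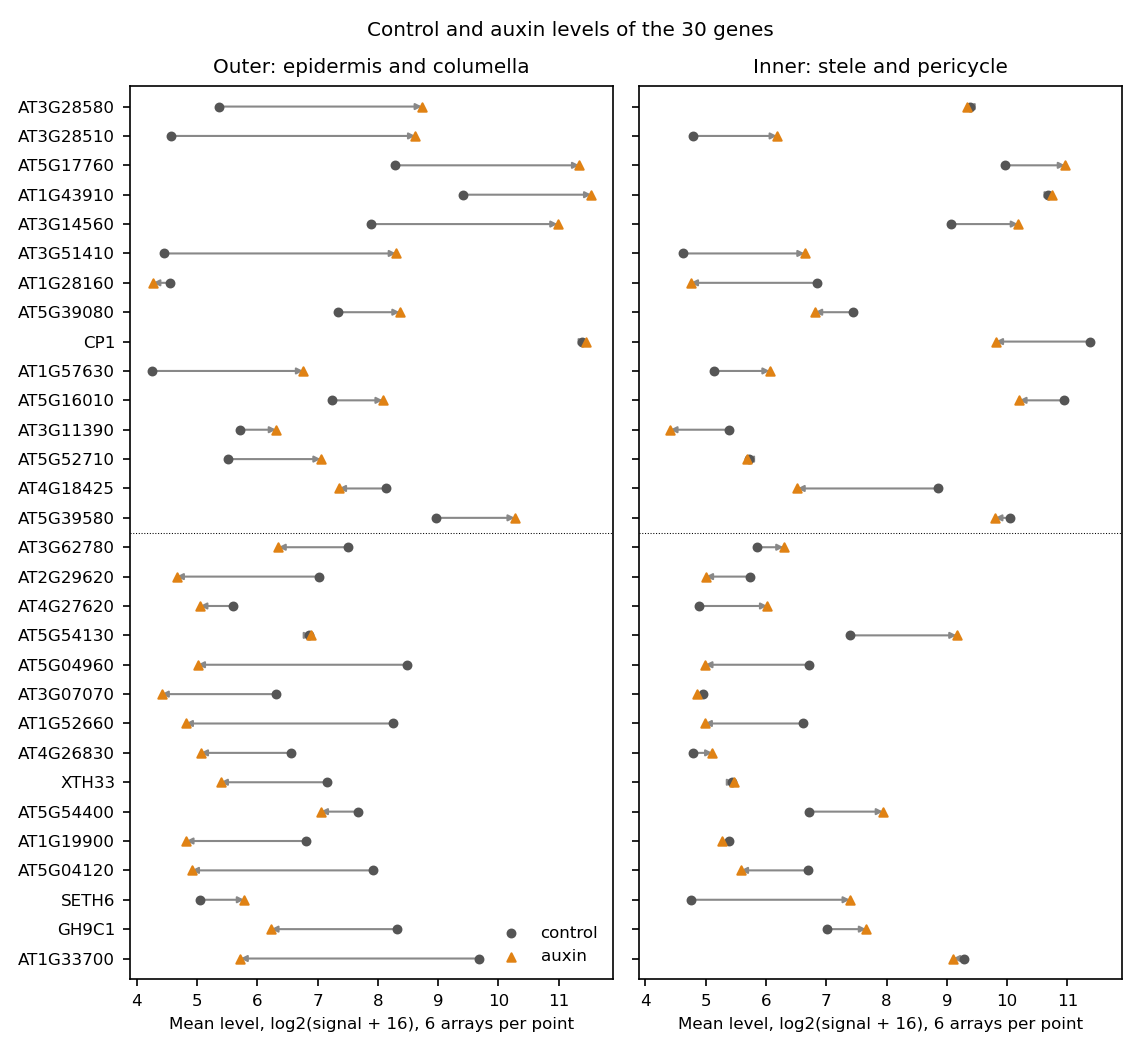
Mean level, log2(signal + 16), of the 30 genes with the largest differences in control (grey circles) and auxin arrays (orange triangles), for the outer tissues on the left and the inner tissues on the right, 6 arrays per point, with arrows from control to auxin. AT3G28580 starts far lower in the outer tissues and ends 0.61 below the inner level, AT5G04960 starts higher in the outer tissues and ends level, and AT1G33700 starts near the inner level and ends far below it.

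The levels from which the responses started differed as well. In control arrays 2629 of all genes (29.3%) differed between the sides, 1169 (13.0%) higher and 1460 (16.3%) lower in the outer tissues, and in auxin arrays 3773 (42.0%) differed, 1570 (17.5%) higher and 2203 (24.5%) lower. Of the 62 genes with a higher outer response, 31 had a lower and 12 a higher control level in the outer tissues, and in auxin arrays 6 had a lower and 41 a higher level. Of the 56 genes with a lower outer response, 24 had a higher and 6 a lower control level outside, and with auxin 0 were higher and 37 lower. Control level and response difference share the control arrays, so these counts are set side by side without a test of their relation. In single genes the course varied. AT5G04960 was higher in outer control tissue by 1.78 and stood at 0.01 with auxin, XTH33 went from 1.73 to −0.08, and AT5G17760 from −1.69 to 0.39. GH9C1 instead turned from 1.31 to −1.43, and AT5G54130 went from −0.54 to −2.27.

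Tissues of the same side were compared by the same fit, but as single tissues, which gives larger standard errors. For AT1G33700 the standard error was 0.49 between epidermis and columella and 0.34 between the sides. Counts of calls here are therefore not on a par with the 118. No gene was called for a response difference between epidermis and columella (0%, limma, adjusted p under 0.05). XTH33, at −2.13 ± 0.46, did not pass. An unadjusted p under 0.05 was found for 357 of 8976 genes, below the 5% given by a test with no differences. The alternative settings gave at most 12 calls. These counts do not show that the 2 tissues responded equally. Between stele and pericycle 54 genes differed (0.602%), 10 (0.111%) higher and 44 (0.490%) lower in the stele, a count that ran from 25 (without pericycle control replicate 2) to 110 (without pericycle auxin replicate 1) with single arrays left out, and up to 172 in the other settings (over all probe sets). Of the 118 genes, 6 were also called between stele and pericycle. AT1G28160 was among them, with a stele minus pericycle response of −2.70.

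Intact roots, which the comparison did not use, gave a separate set of 6 arrays, 3 with auxin and 3 without, from roots that were neither digested nor sorted. There 1787 of 8976 genes (19.9%) responded, 924 (10.3%) up and 863 (9.61%) down. Of the 62 higher genes, 18 rose and 10 fell in intact roots, with a median response of 0.17, and of the 56 lower genes, 17 rose and 8 fell, with a median of −0.01. Over all genes the median was −0.018. Of the 15 genes that rose on both sides and farther outside, 9 rose and none fell in intact roots. Of the 18 that rose inside alone, 9 rose and none fell, while of the 22 that fell outside alone, 5 fell and 4 rose. Intact roots had no digestion and a shorter exposure to IAA, and they hold all tissues at once, which cannot be told apart here.

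All 4 called AAA-type ATPase genes rose in intact roots, AT5G17760 by 2.82, AT1G43910 by 1.58, AT3G28510 by 1.54 and AT3G28580 by 1.47. AT1G33700, the gene with the largest difference between the sides, had intact signals of 4336, 2917 and 2977 without and 3513, 2984 and 2778 with auxin, which overlapped, and a response of −0.12 ± 0.15 (limma, adjusted p = 0.637). GH9C1 stood at 0.07 ± 0.16 and EXPA18 at −0.09 ± 0.12, neither of which passed. EXPA18 had signals of 1716, 1543 and 1537 in control roots and 1397, 1568 and 1549 in auxin-treated roots, against 323, 258 and 360 and then 8.53, 2.25 and 4.04 in sorted epidermis. AT1G19900 in contrast fell by 3.40 ± 0.19 in intact roots, from 479, 553 and 526 to 33.7, 35.6 and 34.9, and XTH33 fell by 1.08 ± 0.19. SETH6 and GH3.3 rose by 3.24 ± 0.20 and 4.91 ± 0.16. CP1 rose by 1.43 ± 0.34 in intact roots, from 27.5, 81.1 and 22.4 to 95, 110 and 212, whereas it fell in the sorted stele and pericycle.

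**Figure D5:**
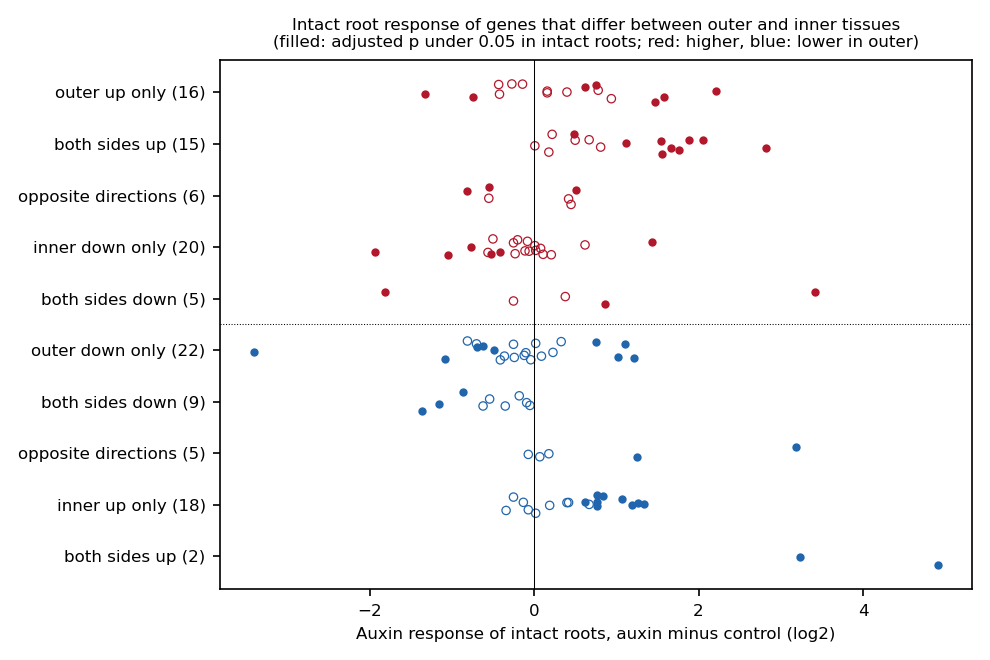
Auxin response in intact roots (log2, x axis) of each of the 118 genes, grouped by which side was called in the sorted tissues, with the higher genes in red above the dotted line and the lower genes in blue below it; filled points had an adjusted p under 0.05 in intact roots. All filled points of the genes that rose on both sides or in the inner tissues alone lie to the right of 0, and most points of the genes that fell outside alone are open.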

How the data were processed

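Expression was measured on single-colour arrays of 22810 probe sets. The authors deposited an intensity for each, computed by MAS5 according to the submitters' processing notes; for the version, chip definition and genome build, the sources used here give nothing. Per the labels, RNA was amplified before hybridisation. The deposited intensities had a mean of 250.0 on every array after the lowest and highest 2% were left out. Names came from the platform annotation: 13513 probe sets have 1 gene, 503 several and 8730 none, and 13436 matched the RefSeq table of TAIR10.1, used for names and gene order only. For each of 13356 genes the probe set with the highest mean log2 signal was used, and 8976 genes with a signal over the 40th percentile on 3 or more of 24 arrays were tested.

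The values log2(signal + 16) were computed from the deposited intensities and fitted in limma 3.58.1 (R 4.3.3) with 8 group means and an intensity trend in the empirical Bayes step (16 residual degrees of freedom, median residual SD 0.356). Contrasts gave the responses, levels and differences, two-sided, with Benjamini-Hochberg adjustment over 8976 genes, and intact roots were fitted apart on 6 arrays. On simulated data of 8976 genes for the difference between the sides, 49% of changes of 1 and 98% of changes of 2 (log2) were recovered, and 5.16% of calls were false. The text names the 15 largest differences each way with one sign in all 4 tissue pairs, the top 3 of each class, and of 32 lists up to 4 called and 2 other members; genes named outside this rule were chosen after their values were seen. The members, lists and tests were chosen with earlier results of these data known. Whether replicate numbers pair arrays was checked by the correlation of their deviations from group means. For arrays of the same number, r ran from 0.015 to 0.386 over 12 pairs and was over 0.1 in 6. Of 12 control arrays, 9 correlated best with the auxin array of their own number, so pairing remains possible. The main fit did not use it, and a block of pairs within tissue gave 274 calls against 118. Alternatives varied the pseudocount, filter, normalization, arrays, weights, trend, probe set rule, blocks and tissues, and left out each array in turn. No sequences are given. Python 3.11.15 with matplotlib 3.10.9 drew the figures.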

Additional observations from a re-analysis of the deposited data

Results flagged for a closer look

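The interaction test between the sides marked the genes below, given with their differences (log2, outer minus inner). They are the 15 largest each way by the rule for named genes, and AT1G23790 as a leading gene of its class. Lower in the outer tissues were AT1G33700 at −3.78, GH9C1 at −2.75, SETH6 at −1.91, AT5G04120 at −1.90, AT1G19900 at −1.88, AT5G54400 at −1.86 and XTH33 at −1.81. AT4G26830, AT1G52660 and AT3G07070 stood at −1.80, AT5G04960 at −1.77, AT5G54130 at −1.73, AT4G27620 at −1.69, AT2G29620 at −1.63, AT3G62780 at −1.61 and AT1G23790 at −1.54. The call for AT3G62780 was lost in 24 of 40 alternative settings and that for AT2G29620 in 19.

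Higher in the outer tissues were AT3G28580 at 3.40, AT3G28510 at 2.67, AT5G17760 at 2.08, AT1G43910 at 2.06, AT3G14560 at 1.97, AT3G51410 at 1.83, AT1G28160 at 1.80, AT5G39080 at 1.65 and CP1 at 1.64. AT1G57630 stood at 1.58, AT5G16010, AT3G11390 and AT5G52710 at 1.57, AT4G18425 at 1.56 and AT5G39580 at 1.54. AT1G28160 was also marked by the test of stele against pericycle, with a stele minus pericycle response of −2.70.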

How the results depend on the processing

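The number of genes called for the difference between the sides, 118 (62 higher, 56 lower), changed with several settings. It was 260 (109 and 151) with log2(signal + 64), 235 (117 and 118) with all 30 arrays in the fit, 361 (161 and 200) with array weights, 347 (164 and 183) over all probe sets, and 99 genes were higher with quantile normalization. The replicate number gave 274 (135 and 139) as a block of pairs within each tissue and 213 (104 and 109) as a block across tissues, and 9 of 12 control arrays correlated best with the auxin array of their own number, a hint from the data only. With 1 tissue left out of the contrast, a setting chosen after seeing the data, it was 65 (21 higher) without the stele, 107 genes were higher without the pericycle, 25 (20 and 5) remained without the epidermis, and 63 (27 and 36) without the columella. Higher genes made up 52.5% of calls in the main setting, 57.6% with quantile normalization, 59.4% with scaling to the 75th percentile and 41.9% with log2(signal + 64). Leaving out each array in turn gave 85 to 192 (47 to 88 higher, 38 to 104 lower), the highest without columella control replicate 1. Over all probe sets the outer response had 3283 calls (1657 and 1626), the inner 5223 (3001 and 2222), the control level 5081 (2284 and 2797) and the auxin level 7161 (3052 and 4109). The epidermis minus columella response had 1 call with log2(signal + 64), 4 with all 30 arrays, 12 with array weights, 1 with no intensity trend, 2 with the block of pairs, and 0 to 4 with an array left out. The stele minus pericycle response had 102 with log2(signal + 64), 100 with quantile normalization, 118 with all 30 arrays, 82 with array weights, 172 over all probe sets, 152 with the block of pairs, and 25 to 110 with an array left out: 25 to 33 without stele control 2 or 3, stele auxin 1 or 2, pericycle control 2 or 3 or pericycle auxin 3, and 110 without pericycle auxin 1. Intact roots had 1042 (584 and 458) calls with all 30 arrays in the fit. All 118 genes kept the sign of their difference in every setting in which they were tested, but their selection largely fixed this. The balance of higher and lower genes was not kept. Higher genes were the majority in the main setting. They were the minority in several others, among them log2(signal + 64), array weights, all probe sets and the contrast without the stele. The causes were not tested. The number of arrays, 3 per group, limits the precision, and low signals give small log2 changes.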

Other observations

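The test of the difference between the sides was also run over 16332 probe sets, named or not, of which 347 were called. Of 6881 probe sets that the annotation does not list, 174 were called (2.53%), 78 higher and 96 lower, against 168 of 9090 probe sets with 1 gene (1.85%), 84 in each direction. These 174 probe sets were not analysed further here.

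Some called genes lay within 10 annotated genes of each other. AT1G72840, AT1G72900 and AT1G72940, 3 genes of the TIR domain family, all had a higher outer response, by 1.02, 1.35 and 1.01. AT5G52670, AT5G52710 and AT5G52760, 3 genes of the heavy-metal-associated domain family, were higher by 1.39, 1.57 and 1.28. UGT76B1 and AT3G11390, which lie 5 annotated genes apart, were higher by 1.32 and 1.57, and AT2G29620 and AT2G29670, 7 apart, differed in opposite directions, by −1.63 and 1.03. All these genes were picked after their values were seen.

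MGL, which encodes methionine gamma-lyase, an enzyme that breaks down methionine, had an outer response of 1.25, an inner response of −0.13 and a difference of 1.39 ± 0.31 (limma, adjusted p = 0.0132). CuAO1, a copper amine oxidase gene, and UPB1, a bHLH gene that controls peroxidases in the root, had mean outer responses of 0.76 and 0.60. Both were called for the difference. For CuAO1 the epidermis passed (0.95) and the columella did not (0.57), and for UPB1 the columella passed (1.00) and the epidermis did not (0.20). The chaperone gene AT1G54050, a small heat shock protein, had a response of 2.31 in the stele and values between −0.13 and 0.30 in the other 3 tissues. AT2G41810, a gene of the DUF642 family of cell wall proteins, had responses of −5.36 in the outer and −4.20 in the inner tissues and a difference of −1.16 ± 0.27. In intact roots its signals were only 13.1, 17.5 and 11 without and 0.691, 9.57 and 3.87 with auxin. Little fall could be measured there, and its response was −0.54 (limma, adjusted p = 0.163). These genes too were picked after their values were seen.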
